A study of Mus musculus with 24 samples.

Results

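The genes described here are 8 that encode astrocyte proteins, other than thrombospondins, known to promote, mature or remove synapses: Sparcl1, Sparc, Gpc4, Gpc5, Gpc6, Chrdl1, Megf10 and Mertk. They were chosen by name, for what the proteins are known to do and with earlier results of these data known. They are 8 of the 15232 genes of the deposited expression table. All 8 were among the 12572 genes with a mean of at least 1 FPKM that were tested. FPKM counts fragments per kilobase of a gene's length and per library size.

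The study measured polyadenylated RNA in bulk tissue of the mouse anterior cingulate cortex, a frontal cortical area, to learn how thrombospondins 1 and 2 bear on effort in goal-directed behaviour. The 24 libraries, 1 per animal, form 3 arms of 8, each with 4 females and 4 males. They are untrained mice labelled wild type (WT), untrained mice labelled Thbs1/2 knockout (KO), and KO-labelled mice trained in operant chambers. Trained animals were food deprived for the training and their RNA was collected soon after the behaviour, so training, food deprivation and handling cannot be told apart. Both KO arms carry the same labelled genotype, for which the labels name no promoter or Cre. Age and strain are not given in the sources used here. The 24 libraries hold no trained mice with the WT label, so whether a training difference depends on genotype cannot be tested.

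Astrocytes shape synapses through proteins that they release or carry on their surface. Hevin, the product of Sparcl1, bridges neurexin and neuroligin across the synaptic cleft and promotes excitatory synapses, and its relative SPARC can oppose that action. Glypicans are heparan sulfate proteoglycans held on the membrane by a lipid anchor. Glypican 4 and glypican 6, shed from astrocytes, draw AMPA-type glutamate receptors to young synapses. Chordin-like 1, a secreted antagonist of bone morphogenetic proteins, promotes the maturation of synapses through AMPA receptors that hold the GluA2 subunit. MEGF10 and MERTK are receptors through which astrocytes recognise and engulf synaptic material.

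Of the 8 members, 4 had a promoter in the RefSeq table of build GRCm38.p6. The promoters of Sparc and Gpc5 are shown because their RNA levels moved together from library to library, as described further on. Each run is the 250 bases before the listed start, written 5′ to 3′ on the strand of the gene. For Gpc5 the last 14 bases lie inside the outer edge of the gene as RefSeq lists it, and for Sparc 0 do. For Sparc it is chr11:55420081-55420330, minus strand, and for Gpc5 chr14:115091965-115092214, plus strand. Capitals mark matches to the motifs searched.
Sparc: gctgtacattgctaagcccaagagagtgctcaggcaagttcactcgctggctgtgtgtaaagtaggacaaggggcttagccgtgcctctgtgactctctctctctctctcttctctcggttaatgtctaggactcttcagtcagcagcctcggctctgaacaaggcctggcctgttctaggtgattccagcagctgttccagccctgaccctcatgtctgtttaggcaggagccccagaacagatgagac
Gpc5: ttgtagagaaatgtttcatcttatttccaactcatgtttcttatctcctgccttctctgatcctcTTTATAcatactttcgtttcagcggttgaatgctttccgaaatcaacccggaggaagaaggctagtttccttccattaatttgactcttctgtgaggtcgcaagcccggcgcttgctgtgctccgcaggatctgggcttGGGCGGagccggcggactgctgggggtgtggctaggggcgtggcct
The search covered both strands for a GC box (GGGCGG, in 32.7% of the 32851 promoters of this length), a TATA box (TATAAA, 12.4%), a CCAAT box (CCAAT, 33.8%), a nuclear factor I site (TTGGCA, 12.3%), a Sox core (ACAAT, 27.7%) and a STAT site (TTCNNNGAA, 7.0%). The nuclear factor I site read on the other strand can overlap a CCAAT box. The Gpc5 window held 1 TATA-box match, on the minus strand, and 1 GC-box match, and the Sparc window held none of the 6 motifs. The Gpc5 window had 12 CpG dinucleotides and a GC content of 51.2%, and the Sparc window 4 and 54.0%, against medians of 6 and 52.4% over all promoters. The 2 windows thus shared no searched motif.

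Recovered read totals were 12898226 to 19991770 per library in the WT-labelled arm, 12343773 to 27233267 in the untrained KO-labelled arm and 16796512 to 20414047 in the trained arm. Both targeted genes had their lowest RNA where the label says WT. These are RNA values of whole genes, and protein was not measured, so they do not settle whether the labels are right. Thbs1 stood at 0.512 ± 0.147 FPKM (SD, n = 8) in libraries labelled WT, 3.68 ± 0.840 in untrained and 4.63 ± 0.690 in trained libraries labelled KO, and Thbs2 at 2.02 ± 0.294, 3.51 ± 0.378 and 3.29 ± 0.227. Libraries are therefore named by their labels throughout, and every direction between genotypes rests on those labels. Untrained male 3 labelled KO stood apart with the deepest library and a summed level of 6 striatal markers of 345 FPKM, where the arm's remaining 7 libraries had 63.4 to 244. Its summed neuron markers were 2065 FPKM against 3090 to 3709 in those 7, and its summed oligodendrocyte markers 585 against 971 to 1102. Most genotype and training differences of the 8 members are given with and without that library. Calls of other named genes rest on fits that include it. Animal numbers over 1000 were carried by all 8 trained animals, 2 untrained males labelled KO and 1 male labelled WT. In females the animal number and training therefore cannot be told apart.

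The 8 genes spanned a wide range of levels. Averaged over the 24 libraries, the order per kilobase of gene was Sparcl1 (835 FPKM), Sparc (74.8), Gpc5 (14.5), Mertk (13.8), Megf10 (5.06), Gpc4 (4.44), Chrdl1 (3.55) and Gpc6 (2.99). Sparcl1 was higher than 99.9% of the genes in the table. Sparcl1 lay above Sparc, Sparc above Gpc5 and Mertk above Megf10 in 24 of 24 libraries. The neighbours Gpc5 and Mertk were close, with Gpc5 higher in 16 of 24 libraries, as were Megf10 over Gpc4 (18 of 24), Gpc4 over Chrdl1 (17 of 24) and Chrdl1 over Gpc6 (21 of 24). Reads behind these values were 29582 to 57441 per library for Sparcl1, 2184 to 11477 for Sparc and 103 to 403 for Gpc4, the gene with the fewest.

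**Figure D1:**
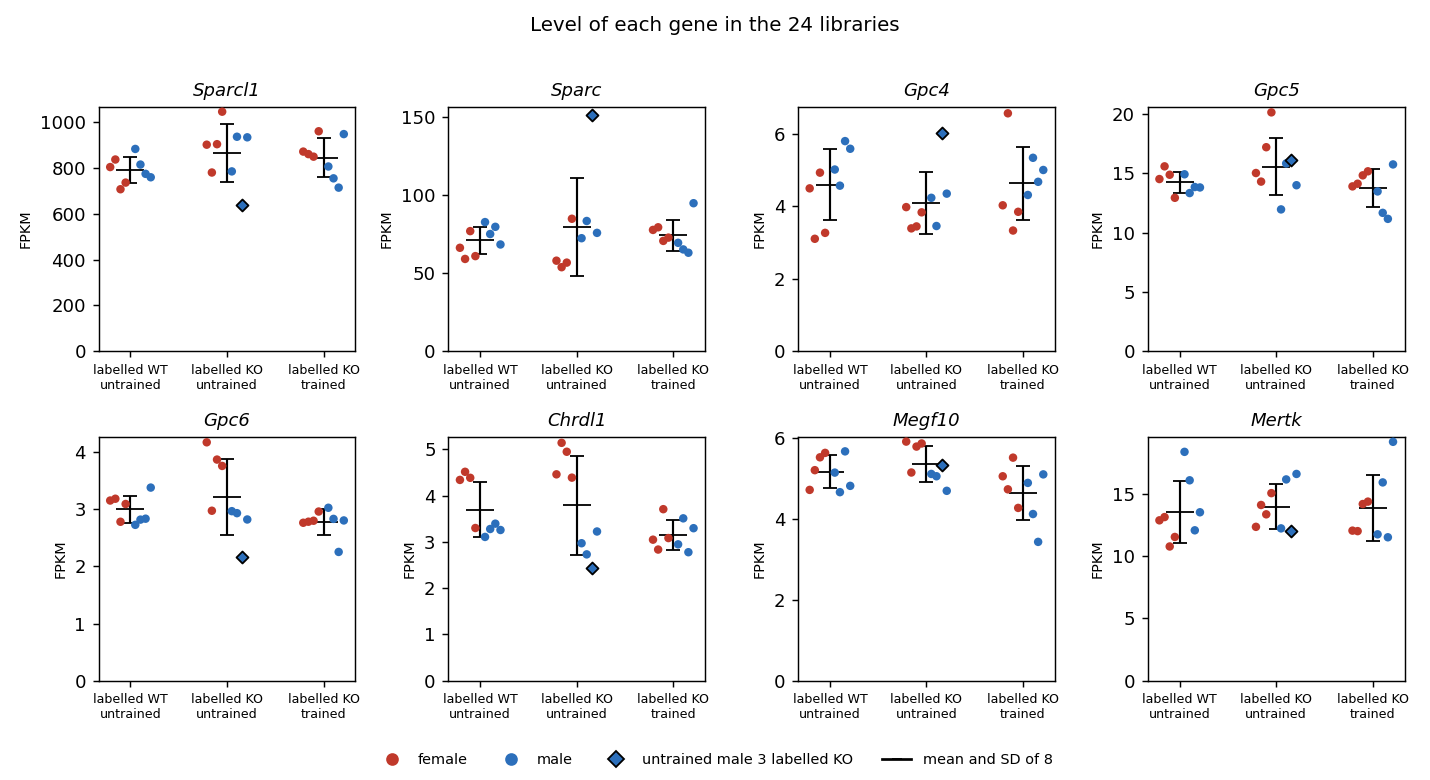
Level of each of the 8 genes in FPKM (vertical axis, from 0) in the 24 libraries by labelled arm. Points are single animals, red for females and blue for males, bars are the mean and SD of 8, and the diamond is untrained male 3 labelled KO, which is the highest of its arm for Sparc (151) and Gpc4 (6.02) and the lowest for Sparcl1, Gpc6, Chrdl1 and Mertk.

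None of the 8 genes passed the test between untrained libraries labelled KO and WT, the comparison that asks what the labelled genotype does to these genes without training. The fit called 179 of 12572 genes, or 1.42%, with limma's moderated test on log2(FPKM + 1) and Benjamini-Hochberg adjustment over all tested genes. For the 8 members 0 had an unadjusted p under 0.05, beside 12.7% of all tested genes, and limma-voom on recovered reads also called 0. Their median log2 difference was 0.06, with 7 of 8 above zero, beside -0.0014 over all tested genes and 0.07, with 12 of 13 above zero, for the 13 astrocyte markers. In bulk RNA, fewer cells of a type and less RNA per cell cannot be told apart.

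Among the secreted pair, Sparcl1 ranged from 708 to 884 FPKM (median 790) in the WT-labelled arm, from 640 to 1047 (median 904) in the untrained KO-labelled arm and from 715 to 961 (median 856) in the trained arm. The 3 ranges overlapped widely. KO minus WT was 0.12 on the log2(FPKM + 1) scale (SE 0.0837, 95% interval -0.05 to 0.30, limma adjusted p = 0.594), and 0.18 without untrained male 3 (adjusted p = 0.137). For Sparc the lowest, median and highest levels were 59.0, 71.6 and 82.6 FPKM in the WT-labelled arm, 53.7, 74.0 and 151 in the untrained KO-labelled arm, and 63.0, 71.6 and 94.6 in the trained arm. The value of 151 belonged to untrained male 3, and the next highest of that arm was 84.7. The Sparc difference for genotype was 0.09 (SE 0.137, interval -0.20 to 0.38, limma adjusted p = 0.841) with that library and -0.03 without it. Sparc is also made by blood vessel cells and fibroblasts, whose summed markers in that arm ranged from 46.2 to 66.3 FPKM (endothelial) and from 6.58 to 15.4 FPKM (fibroblast). Their part in the Sparc values was not tested.

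The glypicans gave small differences for genotype that did not pass. Gpc4 ranged from 3.11 to 5.80 FPKM (median 4.75) in libraries labelled WT, from 3.39 to 6.02 (median 3.91) in untrained libraries labelled KO and from 3.33 to 6.57 (median 4.50) in trained ones. Its difference for genotype was -0.13 (SE 0.0934, interval -0.33 to 0.07, limma adjusted p = 0.602) and -0.18 without untrained male 3 (adjusted p = 0.273). Gpc5, a further glypican with high expression in mature astrocytes, ranged from 12.9 to 15.6 FPKM (median 14.2) with the WT label, from 12.0 to 20.2 (median 15.4) in untrained libraries with the KO label and from 11.2 to 15.8 (median 14.02) after training. The KO-labelled untrained arm held both a lower lowest and a higher highest value than the WT-labelled arm. Its difference was 0.11 (SE 0.0713, interval -0.04 to 0.26, limma adjusted p = 0.569). Gpc6 ranged from 2.73 to 3.38 FPKM (median 2.96), 2.17 to 4.17 (median 2.97) and 2.25 to 3.03 (median 2.80) in the same 3 arms, and its difference for genotype was 0.06 (SE 0.0728, interval -0.09 to 0.21), or 0.11 without untrained male 3.

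Chrdl1 ranged from 3.11 to 4.51 FPKM (median 3.35) in libraries labelled WT, from 2.44 to 5.14 (median 3.81) in untrained libraries labelled KO and from 2.78 to 3.71 (median 3.07) in trained ones. KO minus WT was 0.0058 (SE 0.0703, interval -0.14 to 0.15), the smallest of the 8. The engulfment receptor Megf10 ranged from 4.66 to 5.67 FPKM (median 5.18), from 4.70 to 5.91 (median 5.23) and from 3.43 to 5.52 (median 4.81) in those arms, with a genotype difference of 0.04 (SE 0.0488, interval -0.06 to 0.15). The receptor tyrosine kinase gene Mertk ranged from 10.8 to 18.4 FPKM (median 13.003), from 12.0 to 16.6 (median 13.7) and from 11.5 to 19.2 (median 13.1), with a genotype difference of 0.05 (SE 0.0895, interval -0.14 to 0.24). The adjusted p-values of these 3 genes, from limma, were 0.981, 0.774 and 0.867. Without untrained male 3 the genotype differences were 0.04 for Chrdl1, 0.04 for Megf10 and 0.09 for Mertk.

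Mertk lies on chromosome 2 (chr2:128698915-128803162, GRCm38.p6), 10.6 Mb from Thbs1 and 102 tested genes away from it. Of its 20 nearest tested genes, 3 passed for genotype label (Fahd2a and Kcnip3 among them), beside 43 of 963 on chromosome 2 (4.47%) and 0 or 1 of 20 around each other member. Mertk itself did not pass. Gpc5 and Gpc6 are neighbours on chromosome 14 (chr14:115092201-116525192 and chr14:116924920-117979529). The remaining members lie at chr5:104079108-104114088 (Sparcl1), chr11:55394159-55420080 (Sparc), chrX:52051007-52164923 (Gpc4), chrX:143285674-143394263 (Chrdl1) and chr18:57133090-57297467 (Megf10).

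No member passed between trained and untrained libraries labelled KO either, where 713 of 12572 genes (5.67%) did. Of the 8 differences 1 was above zero, and their median was -0.09 beside 0.0065 over all tested genes. The median of the 13 astrocyte markers was -0.10, with 3 above zero, and that of the 6 oligodendrocyte markers was 0.29, with 6 above zero. Both medians come from fits that include untrained male 3, and the part of either in the members' differences was not tested. Megf10 alone had an unadjusted p under 0.05 (limma adjusted p = 0.107), beside 23.8% of all tested genes, and limma-voom called 0 members. Its mean was 5.36 ± 0.445 FPKM (SD, n = 8) in untrained and 4.64 ± 0.664 in trained libraries, a difference of -0.18 (SE 0.0649, interval -0.32 to -0.04). The 2 arms overlapped, since the trained range of 3.43 to 5.52 reached above the untrained low of 4.70. By sex, Megf10 averaged 5.68 FPKM in untrained and 4.89 in trained females, and 5.05 and 4.39 in males.

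The training differences of the other members had intervals that included zero. They were -0.03 for Sparcl1 (SE 0.0855, interval -0.21 to 0.15), -0.03 for Sparc (0.154, -0.36 to 0.29), 0.14 for Gpc4 (0.104, -0.08 to 0.36) and -0.16 for Gpc5 (0.0794, -0.33 to 0.01). For Gpc6 the difference was -0.14 (SE 0.0745, interval -0.30 to 0.01), for Chrdl1 -0.18 (0.0912, -0.37 to 0.01) and for Mertk -0.02 (0.0978, -0.23 to 0.19). The limma adjusted p-values of these 7 genes lay between 0.227 and 0.924. Without untrained male 3 the training values were -0.08 for Sparcl1, 0.10 for Sparc, 0.20 for Gpc4 (limma adjusted p = 0.179), -0.14 for Gpc5, -0.19 for Gpc6 (adjusted p = 0.0904), -0.22 for Chrdl1 (adjusted p = 0.114), -0.17 for Megf10 and -0.06 for Mertk, and 0 members passed. With animal number over 1000 as a covariate, the Chrdl1 value was -0.02, that of Megf10 was -0.19 and that of Gpc4 was 0.32, and 0 of all tested genes passed (1306 at an unadjusted p under 0.05). Of the untrained KO-labelled animals only 2 males have such numbers. Training and number are thus poorly separated in that fit, and its lack of calls decides nothing about either.

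**Figure D2:**
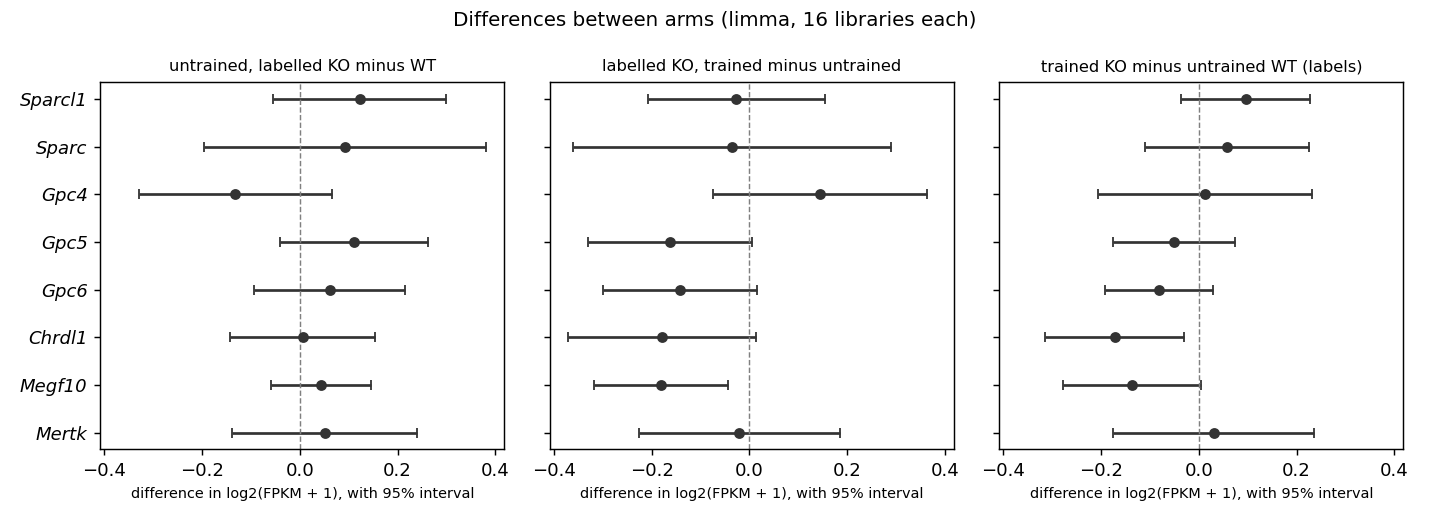
Difference of each of the 8 genes between arms on the log2(FPKM + 1) scale (horizontal axis), as the limma estimate (point) with its 95% interval (bar), for the 3 comparisons of 2 arms with 16 libraries each. All intervals for genotype label include 0, and those that do not include 0 are Megf10 for training (-0.32 to -0.04) and Chrdl1 for trained KO against untrained WT (-0.31 to -0.03), neither of which passed after adjustment.

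Between trained libraries labelled KO and untrained libraries labelled WT, which differ in 2 labels at once, 3074 of 12572 genes passed (24.5%) and 0 of the 8 members did. This comparison shares its WT-labelled libraries with the genotype comparison and its trained libraries with the training comparison. Chrdl1 came nearest, at 3.70 ± 0.600 FPKM (SD, n = 8) against 3.15 ± 0.328, a difference of -0.17 (SE 0.0676, interval -0.31 to -0.03, limma adjusted p = 0.0699). It was the single member with an unadjusted p under 0.05, beside 37.5% of all tested genes, and limma-voom called it. It also passed when any 1 of 3 libraries was left out (trained male 2, trained male 4 and WT-labelled female 4), with adjusted p-values over the 16 such fits from 0.0371 to 0.137. Over its 29 alternatives in all, the limma adjusted p of Chrdl1 ran from 0.030 to 0.951. Settings other than leaving out 1 library gave differences from -0.231 to -0.0487. For Megf10 the difference was -0.14 (SE 0.0677, interval -0.28 to 0.01, adjusted p = 0.149), and for Sparcl1 0.10 (SE 0.0626, interval -0.04 to 0.23, adjusted p = 0.274). Sparc, Gpc4, Gpc5, Gpc6 and Mertk differed by 0.06, 0.01, -0.05, -0.08 and 0.03, with limma adjusted p-values between 0.270 and 0.945.

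For sex, 2 of the 8 genes passed, both X-linked, in a fit over all 24 libraries that called 3595 of 12572 genes (28.6%). Chrdl1 was lower in males, at 3.08 ± 0.312 FPKM (SD, n = 12) against 4.01 ± 0.784 in females, a difference of -0.28 (SE 0.0671, interval -0.42 to -0.15, limma adjusted p = 0.00351). Gpc4 was higher in males, at 4.87 ± 0.743 FPKM (n = 12) against 4.02 ± 0.964, a difference of 0.23 (SE 0.0842, interval 0.06 to 0.41, limma adjusted p = 0.0389). On the X chromosome 148 of 412 tested genes (35.9%) passed for sex, 32 higher and 116 lower in males. Chrdl1 kept its call in all 24 fits that left out 1 library, and Gpc4 in 11 of them. In the trained arm the Chrdl1 means were 3.17 FPKM in females and 3.13 in males (n = 4 each).

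Sex differences varied with GC content across genes. Across 12118 tested genes with a known value, the sex difference and the GC content of the transcripts had a Spearman correlation of 0.697, given as a description across genes, which are not replicates. The transcripts of Chrdl1 have 41.0% GC, higher than 8.56% of tested genes, and those of Gpc4 50.8%. After correction for GC content and length the sex differences were -0.14 for Chrdl1 (limma adjusted p = 0.199) and 0.18 for Gpc4 (adjusted p = 0.233), 0 members passed, and 741 of all genes did. The other 6 members had limma adjusted p-values for sex between 0.0639 and 0.406 in the uncorrected fit.

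Chrdl1 values were spread more widely among females (2.83 to 5.14 FPKM) than among males (2.44 to 3.51 FPKM). Untrained females labelled WT were at 4.34, 4.51, 4.38 and 3.30 FPKM, untrained females labelled KO at 4.46, 5.14, 4.95 and 4.39, and trained females labelled KO at 3.05, 2.83, 3.71 and 3.08. The trained females thus all lay below the untrained females labelled KO. Males were at 3.11, 3.28, 3.39 and 3.26 FPKM (WT label), 2.97, 2.73, 2.44 and 3.22 (untrained, KO label) and 2.95, 3.51, 2.78 and 3.30 (trained). The male arms overlapped. Ranges of trained and untrained KO-labelled females did not overlap for 2 of the 8 members, Chrdl1 and Gpc6, beside 2761 of 12572 tested genes (22%).

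The test of the difference itself, a training-by-sex term, gave 0.57 for Chrdl1 (SE 0.122, interval 0.31 to 0.83, limma adjusted p = 0.0673), and 0 of the 8 members passed among 1 of 12572 genes that did (0.00795%). For this term 3 members had an unadjusted p under 0.05, namely Sparc, Gpc6 and Chrdl1, beside 15.5% of all tested genes. Without untrained male 3 the Chrdl1 term was 0.52 with an adjusted p of 0.0448, past the threshold, and after correction for GC content and length it was 0.42 with an adjusted p of 0.217. The range of adjusted p over its 5 alternatives was 0.0448 to 0.217. Females with animal numbers under 1000, who are all untrained, averaged 4.43 ± 0.544 FPKM (n = 8) and those over 1000, all trained, 3.17 ± 0.376 (n = 4). In males, whose numbers cross the arms, the means were 3.12 ± 0.384 (n = 5) and 3.05 ± 0.279 (n = 7). A genotype-by-sex term passed for 0 members and 0 of 12572 genes (0%). For it 2 members, Gpc6 and Chrdl1, had an unadjusted p under 0.05, beside 3.13% of all tested genes.

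Gpc6 in females was at 3.69 ± 0.510 FPKM (n = 4, range 2.97 to 4.17) in untrained and 2.83 ± 0.0904 (range 2.76 to 2.96) in trained KO-labelled libraries. In males the same means were 2.72 and 2.73. For Gpc4, the group means were 3.95 FPKM in WT-labelled females against 5.25 in males, 3.66 against 4.52 in untrained KO-labelled animals, and 4.45 against 4.84 in trained ones. The trained female mean included 1 library at 6.57, the highest of all 24.

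**Figure D3:**
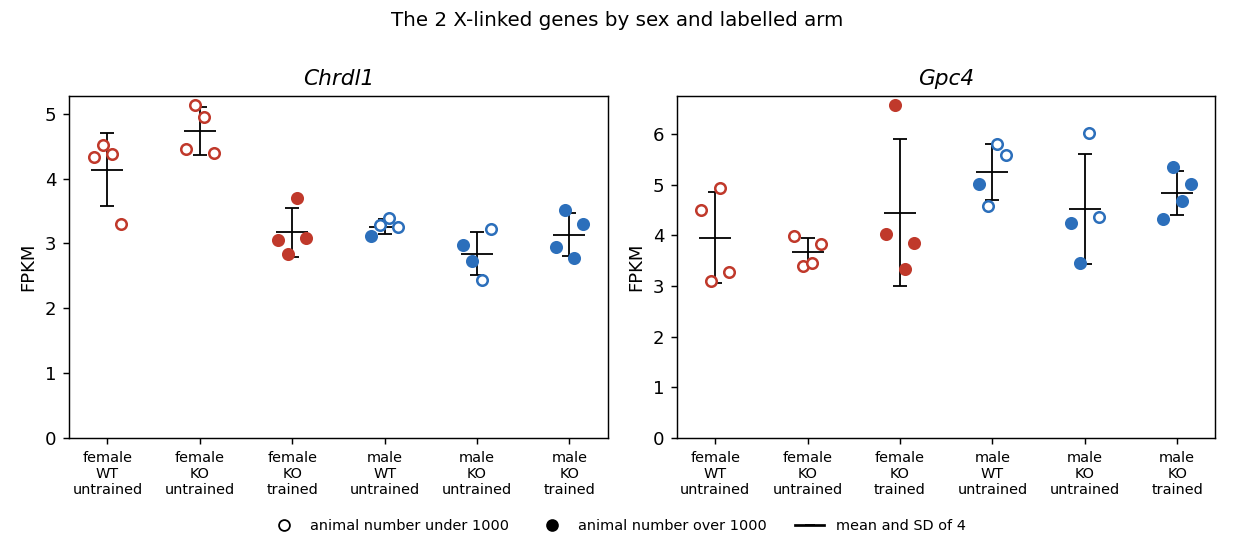
Chrdl1 (left) and Gpc4 (right) in FPKM (vertical axis, from 0) by sex and labelled arm. Open points are animals with a number under 1000 and filled points those over 1000, and bars are the mean and SD of 4. Trained females (2.83 to 3.71) lie below all untrained KO-labelled females (4.39 to 5.14) for Chrdl1, and the 3 male arms overlap.

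Some members varied together from animal to animal. Deviations from the mean of each arm and sex were correlated for the 28 pairs over 24 libraries, with permutation p-values from 100000 resamples and Benjamini-Hochberg adjustment over the 28. The resamples crossed the groups and made no allowance for the means removed, so these p-values are too small, by an amount that was not tested. Of the 28 pairs 3 passed on this basis. How often pairs of other tested genes reach such values was not tested. The 3 genes most alike to each member, given below, included no other member. Sparcl1 and Mertk had Pearson's r = 0.702 (permutation p = 0.0002, adjusted p = 0.0028) and Spearman's rho = 0.701 (p = 0.00023), and r = 0.630 without the 2 libraries farthest from the Sparcl1 median. Sparc and Gpc5, whose promoters are shown above, had r = 0.693 (permutation p = 0.0001, adjusted p = 0.0028) and rho = 0.606 (p = 0.00219), and r = 0.637 without the 2 farthest. Sparcl1 and Gpc6 had r = 0.566 (permutation p = 0.00437, adjusted p = 0.0408) and rho = 0.384 (p = 0.0646).

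Untrained male 3 moved several of these values. Without it the r of Sparcl1 and Gpc6 was 0.379 (permutation p = 0.0742) and that of Sparcl1 and Gpc5 was 0.852, against 0.506 with it (adjusted p = 0.0678). The sign of Sparcl1 with Sparc turned, from r = -0.069 (adjusted p = 0.951) with that library to 0.627 (adjusted p = 0.00903) without it. Then 5 pairs passed, of which 2 had also passed with it, Sparcl1 with Mertk and Sparc with Gpc5. These libraries differ in depth and in striatal, neuron and oligodendrocyte marker levels, whose part in the correlations was not tested.

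**Figure D4:**
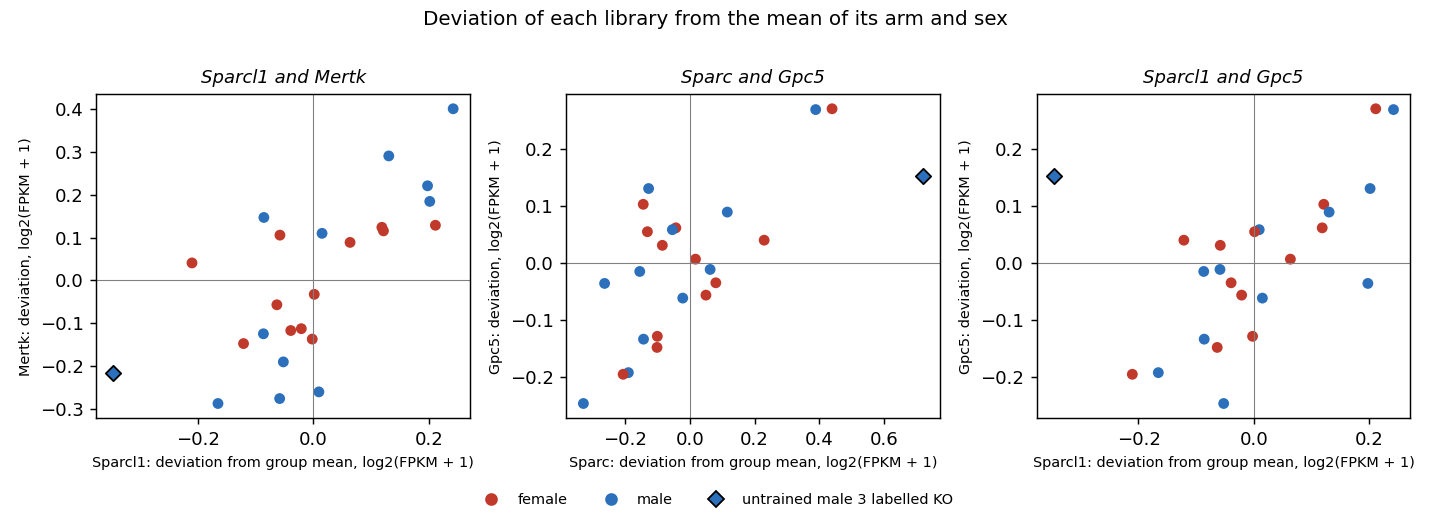
Deviation of each of the 24 libraries from the mean of its arm and sex, in log2(FPKM + 1) on both axes, for 3 pairs of genes. Sparcl1 and Mertk (r = 0.702) and Sparc and Gpc5 (r = 0.693) rise together across libraries, while the diamond, untrained male 3 labelled KO, lies off the line of the other libraries for Sparcl1 and Gpc5 (r = 0.506 with it, 0.852 without).

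The genes most like each member, by Pearson's r of the same deviations over all 24 libraries, are given as a description with no test. For Sparcl1 they were Tshz2 (0.924), Syt2 (0.910) and Abcd2 (0.905). Sparc was most like Mlc1 (0.894), Abca1 (0.875) and Suox (0.874). The glypicans had Gas1 (0.872), Rad9b (0.836) and Fam101b (0.807) for Gpc4, Abhd3 (0.910) and Axl (0.899) for Gpc5, and Gpr158 (0.825), Afap1 (0.799) and Tlk1 (0.784) for Gpc6. Closest to Chrdl1 were Acat2 (0.775), Ctnnd2 (0.729) and Preb (0.696). Megf10 was nearest to Erbb2ip (0.873), Pcdhgc3 (0.868) and Hipk2 (0.860), and Mertk to Glul (0.851), Ap3s2 (0.846) and Arhgef11 (0.801). Without untrained male 3, 14 of the 24 genes that this rule gives were still among the 3 most alike. In that order Mlc1, Abca1 and Suox ranked 15, 17 and 43 for Sparc, Tshz2, Syt2 and Abcd2 ranked 9, 6 and 13 for Sparcl1, and Preb ranked 14 for Chrdl1. The points share their libraries and depth.

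Around the SPARC pair, none of the 6 other SPARC-family genes passed for genotype label or for training (median log2 0.13 and -0.10). In the third comparison 1 rose, Fstl1, a secreted follistatin-like protein (0.13, SE 0.0442, limma adjusted p = 0.0378), and 1 fell, Spock1, a brain proteoglycan (-0.14, SE 0.0449, adjusted p = 0.0305). Of 10 tested synaptic partners of hevin, the glypicans and chordin-like 1, 0 passed for genotype label and 3 for training. Of all tested genes 1.42%, 5.67% and 24.5% passed in the 3 comparisons. These shares stand beside the counts of the SPARC family, this list and the lists below. Nptx2, a neuronal pentraxin that gathers AMPA receptors and is induced by activity, rose from 17.9 ± 4.19 to 28.4 ± 3.99 FPKM (SD, n = 8), a log2 change of 0.66 (SE 0.134, limma adjusted p = 0.0104). Nlgn1, the neuroligin that hevin binds, fell from 16.7 ± 1.75 to 13.6 ± 1.15 FPKM (-0.27, SE 0.0525, adjusted p = 0.0085), and Ptprs, a receptor phosphatase that binds heparan sulfate, fell from 69.1 ± 3.71 to 60.5 ± 4.70 (-0.19, SE 0.0512, adjusted p = 0.0388). Without untrained male 3 the untrained means of Nptx2, Nlgn1 and Ptprs were 19.0 ± 2.81, 16.8 ± 1.88 and 68.7 ± 3.83 FPKM (n = 7). With animal number over 1000 as a covariate, none of these training calls or those below remained, since 0 genes passed. In that fit the training term rests on the 2 untrained males labelled KO with such numbers. It therefore cannot tell whether these calls go with training or with the animal number.

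In the third comparison 1 of these partners was higher, Nptx2 (0.56), and 5 were lower by limma, among them Nlgn1 (-0.33), Ptprs (-0.24), Ptprd (-0.18) and Ptprf (-0.22). These 6 of 10 stand beside 24.5% of all tested genes, and the median of the 10 was -0.16 beside 0.0032. The list was chosen with earlier results of these data known, so these values are a description and no test of the list. Among 11 tested glypican and heparan sulfate genes, 0 passed for genotype label. Ext1, which builds heparan sulfate chains, rose with training (0.26, SE 0.0733, limma adjusted p = 0.0472), and Hs6st1, a sulfotransferase, was higher in the third comparison (0.19, SE 0.0475, adjusted p = 0.00888).

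Of 13 tested genes of bone morphogenetic protein signalling, the pathway that chordin-like proteins restrain, 0 passed for genotype label and 0 for training. In the third comparison the ligand gene Bmp4 (0.31) and the target Id1 (0.27) were higher, and the receptor gene Bmpr2 (-0.19) and Id2 (-0.15) were lower, with limma adjusted p-values from 0.0192 to 0.0330. These 4 of 13, like the 5 of 14 engulfment genes given next, stand beside 24.5% of all tested genes in that comparison. Among 14 tested engulfment genes, 0 passed for genotype label, and Abca1, a lipid transporter that acts beside MEGF10, fell with training from 7.12 ± 1.76 to 4.85 ± 1.00 FPKM (-0.47, SE 0.122, limma adjusted p = 0.0351). Without untrained male 3 the untrained mean of Abca1 was 6.76 ± 1.56 FPKM (n = 7). In the third comparison Mfge8 (0.28), a bridging ligand, Itgb5 (0.16) and Elmo1 (0.14) were higher, and Megf11 (-0.26), a relative of Megf10, and Abca1 (-0.29) were lower.

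The markers of cell types set the tissue in which these genes were read. All 13 astrocyte markers were tested, and their summed level was 1613 to 1905 FPKM in the WT-labelled, 1672 to 2170 in the untrained KO-labelled and 1563 to 2052.5 in the trained arm. For astrocytes 0 of 13 passed for genotype label, 1 for training (Sox9, -0.32) and 5 in the third comparison (Aldoc 0.15 and Acsbg1 0.20 higher, Slc1a3 -0.21, Sox9 -0.29 and Slc4a4 -0.33 lower). These counts, and those of the marker lists below, stand beside 1.42%, 5.67% and 24.5% of all tested genes in the 3 comparisons. Among 8 microglial markers 1 was lower for genotype label (Trem2, -0.44), 0 passed for training, and in the third comparison 1 was higher (Tmem119, 0.14) and 4 were lower (P2ry12 -0.30, Cx3cr1 -0.21 and Trem2 -0.50 among them), with summed levels of 150 to 177, 144 to 171 and 138 to 155 FPKM in the 3 arms. Their part in the levels of Mertk, which microglia also express, was not tested. Of 7 endothelial markers Ly6c1 rose with training (0.49) and was higher in the third comparison (0.53), with summed levels of 50.8 to 64.7, 46.2 to 66.3 and 51.0 to 76.5 FPKM.

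In the 3 comparisons of arms, the other marker lists held calls for trained KO against untrained WT or held none. Of 4 tested fibroblast markers Col1a1 was higher (0.26), of 6 oligodendrocyte markers Ermn was higher (0.34), of 5 precursor markers Pdgfra (-0.21) and Cspg4 (-0.28) were lower, and of 6 neuron markers Syt1 was lower (-0.15). None of the 6 striatal markers passed in any of the 3 comparisons, though their summed level varied from 61.0 to 245 FPKM in the WT-labelled, 63.4 to 345 in the untrained KO-labelled and 59.3 to 175 in the trained arm.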

How the data were processed

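Polyadenylated RNA from 24 mice was sequenced from libraries made with a stranded kit, per the labels' protocols. The authors deposited 1 table of FPKM values for 15232 genes. The submitters' processing notes list FastQC 0.11.7, Trimmomatic 0.38, STAR 2.5.3a, featureCounts, Subread 1.6.3 and the build mm10. The program that gave FPKM, the annotation, the gene filter and whether reads were counted by strand are not given in the sources used here, so reads of overlapping genes cannot be told apart.

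Groups and sexes came from the labels. The members and gene lists were chosen with earlier results of these data known. Each comparison was fitted on log2(FPKM + 1), which understates the change of low genes, with limma 3.58.1 in R 4.3.3 (lmFit, eBayes with trend=TRUE), for the 12572 genes with a mean of at least 1 FPKM over the 24 libraries. Only the compared arms entered, with sex as a covariate, or arm for the sex fit over all 24, and the threshold was an adjusted p of 0.05. Replicates are separate animals by their numbers in the labels. Whole reads were recovered from the FPKM steps (99.99% of values whole within 0.01 read) and cover counting error only. Tested on simulated data, the fit recovered 199 of 200 genes changed by 1 on the log2 scale for genotype label and for training. Differences of the members between arms were far smaller, and recovery at their size was not tested.

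Named genes are the 8 members, Thbs1 and Thbs2, genes of the lists that passed in a comparison of arms, and for each member the 3 genes most alike. Some genes that this rule gives are not reported here, and they stay in the counts. Lists covered the SPARC family, synaptic partners, glypicans and heparan sulfate, bone morphogenetic protein signalling, engulfment, and markers of astrocytes, microglia, endothelium, fibroblasts, oligodendrocytes, their precursors, neurons and striatum. Nptxr was not analysed here. The settings varied were the pseudocount (0.1), the filter (none, or a mean of at least 5 FPKM), the scaling, the trend, all 24 libraries in 1 fit, no sex covariate, array weights, a threshold of 0.1, a replicate block, each library left out, the animal number as a covariate, and correction for GC content and length. The voom fit, the alternatives of the sex interactions, and some fits without untrained male 3 were chosen after seeing the data.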

Additional observations from a re-analysis of the deposited data

Results flagged for a closer look

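A value was picked out where the highest or lowest of the 8 libraries of an arm lay far from the rest by Dixon's test. For the 24 groups examined, chance would give about 1.2 such values, and 3 were found. Sparc in untrained male 3 labelled KO was 151 FPKM, with a gap of 0.682 of the range to the next highest, 84.7. Gpc4 in the same library was 6.02 FPKM, with a gap of 0.635 of the range to the next highest, 4.35. Gpc6 in trained male 3 labelled KO was 2.25 FPKM, with a gap of 0.661 of the range to the next lowest, 2.76.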

How the results depend on the processing

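Gpc4 had the fewest reads of the 8 genes, 103 to 403 per library, and so the widest counting error. For training, array weights called 2 members (Gpc6 and Chrdl1) in place of 0. For trained KO against untrained WT, an equal sum per library, a threshold of 0.1, array weights and voom each called 1, and leaving out 1 library gave 0 to 1. For sex, in place of 2, a mean of at least 5 FPKM called 0 (Gpc4, Gpc6 and Chrdl1 were not testable there), GC and length correction 0, an equal sum, a threshold of 0.1 and array weights 4 each, and leaving out 1 library 1 to 4. The training-by-sex count was 1 without untrained male 3. Without it 5 pairs of genes passed in place of 3.

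The signs that turned belonged to differences that had not passed, and the cause was not tested. For genotype, array weights gave -0.058 for Sparc. For training, the animal-number covariate gave 0.0057 (Mertk) and 0.060 (Sparc), that covariate without untrained male 3 0.038 (Chrdl1) and 0.041 (Mertk), array weights 0.155 (Sparc), and males with numbers over 1000 0.020 (Mertk) and 0.099 (Chrdl1). For trained KO against untrained WT, Gpc4 was -0.021 with GC and length correction, -0.022 with an equal sum and -0.0037 with voom, Mertk was -0.0084 with an equal sum, and the number covariate gave -0.327 (Mertk), -0.102 (Sparcl1), -0.140 (Sparc) and 0.0018 (Gpc6). With that covariate the difference between these arms rests on 1 WT-labelled male, the only WT-labelled animal with a number over 1000. Leaving out 1 library gave, for genotype, -0.0446 to 0.0418 (Chrdl1) and -0.0312 to 0.140 (Sparc), for training -0.0802 to 0.00634 (Sparcl1), -0.0897 to 0.0994 (Sparc) and -0.0848 to 0.0212 (Mertk), and for the third comparison -0.0744 to 0.0494 (Gpc4) and -0.0246 to 0.0818 (Mertk).

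Counts over all genes were 98 without the sex covariate, 297 with array weights and 115 to 340 with 1 library left out for genotype (340 without untrained male 3). For training they were 1445 at a threshold of 0.1, 2020 with array weights, 422 without the sex covariate, 1238 with all 24 libraries, 0 with the number covariate and 330 to 945 with 1 library left out. With the number covariate the third comparison rests on 1 WT-labelled library, so its count is not reported here. An equal sum turned the split of calls from 440 higher and 273 lower to 235 and 385 for training, from 1626 and 1448 to 1095 and 2112 for the third comparison, and from 1857 and 1738 to 972 and 2600 for sex.

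Replicate numbers name different animals, and same-numbered libraries deviated together little (mean r 0.025, -0.07 and -0.102 in the 3 comparisons). A replicate block called 0 members in each and 114, 29 and 1614 genes in all, and turned Gpc4 to -0.0122 and Mertk to -0.0069 in the third comparison.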
